A study of Homo sapiens with 6 samples.

Results

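Protease-activated receptors and the genes that start or restrain blood coagulation were followed across 3 related human breast cancer lines, in sorted cells. The set has 9 genes chosen by name: the receptor genes F2R, F2RL1, F2RL2 and F2RL3, the thrombin precursor gene F2, the tissue factor gene F3, the inhibitor genes TFPI and TFPI2, and the thrombomodulin gene THBD. The array table, of 33297 transcript clusters in all, held a named cluster for 8 of the 9, out of 21214 clusters that carry a gene symbol. F2RL1 was not analysed here. Each of the 8 sat on 1 cluster, so the mean over all 6 arrays, by which a cluster would have been picked among several, decided nothing. The set was proposed with results of these arrays known, and the large difference of F2RL2 in the bone-selected line was among them, so that difference is given as a description.

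RNA came from 231BoM-1833, from 231BrM-2a and from MDA-MB-231, with 2 arrays labelled as biological replicates for each line. 231BoM-1833 and 231BrM-2a are highly metastatic derivatives of MDA-MB-231, a triple-negative breast cancer line, selected for spread to bone and to brain. All cells carried the same sort profile, lacking CD24 and bearing CD44 and ESA (the EPCAM protein), by magnetic sorting from cultures in RPMI-1640 with 10% serum at 4% CO2. No treatment or added genetic change is named in the labels. Each tropism is represented by 1 selected line, so what belongs to the target organ and what belongs to that line cannot be told apart. The labels do not say whether the replicates came from separate cultures or sorts, so a p-value here reflects how far these arrays varied, and that variation may be technical.

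Coagulation starts when tissue factor on a cell surface binds factor VII, which leads through factor X to thrombin, the active form of the F2 product. Thrombin cuts fibrinogen and also cuts the extracellular end of protease-activated receptors, G-protein-coupled receptors whose newly exposed end then acts as a tethered ligand. F2R encodes PAR1, the main thrombin receptor of many cell types, F2RL1 encodes PAR2, which answers to trypsin-like proteases, F2RL2 encodes PAR3 and F2RL3 encodes PAR4. TFPI blocks the tissue factor complex, while thrombomodulin binds thrombin and turns it towards activating protein C, an anticoagulant. Breast cancer cells of this mesenchymal kind are known for tissue factor and PAR1.

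RefSeq promoter windows of 300 bases (250 before and 50 after the annotated start, build GRCh38.p14) were held for 7 of the 9 genes, F2R and THBD being the others. F2RL2 and the genes that passed the test in at least 1 comparison make 5, and the 3 of them with a window are shown, since these are the regions next to the starts of the transcripts that differed. Capitals mark every match to TGANTCA, the AP-1 motif, which reads the same on both strands.
F2RL2 (chr5:76623354-76623653, minus strand): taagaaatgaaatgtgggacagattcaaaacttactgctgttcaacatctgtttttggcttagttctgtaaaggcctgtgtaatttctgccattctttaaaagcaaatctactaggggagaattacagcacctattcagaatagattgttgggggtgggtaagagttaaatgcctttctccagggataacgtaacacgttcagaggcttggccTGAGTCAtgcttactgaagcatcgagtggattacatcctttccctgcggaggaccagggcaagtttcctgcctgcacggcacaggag
F3 (chr1:94541710-94542009, minus strand): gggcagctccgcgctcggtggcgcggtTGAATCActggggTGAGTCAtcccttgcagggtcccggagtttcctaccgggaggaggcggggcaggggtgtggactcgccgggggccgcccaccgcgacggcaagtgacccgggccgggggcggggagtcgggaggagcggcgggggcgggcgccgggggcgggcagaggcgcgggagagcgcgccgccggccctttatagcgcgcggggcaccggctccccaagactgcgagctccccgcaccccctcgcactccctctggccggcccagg
TFPI2 (chr7:93890704-93891003, minus strand): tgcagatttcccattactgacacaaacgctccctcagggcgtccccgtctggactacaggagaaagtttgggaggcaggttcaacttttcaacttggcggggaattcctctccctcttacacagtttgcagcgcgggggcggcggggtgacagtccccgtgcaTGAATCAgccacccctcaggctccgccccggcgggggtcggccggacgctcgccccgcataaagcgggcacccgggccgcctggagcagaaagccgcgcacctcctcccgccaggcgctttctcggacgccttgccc

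The F2RL2 window held 1 AP-1 match, whose first base lay at -37 from the start, and its content of G and C was 44.7%. In F3, 2 matches began at -223 and -210, in a window with 77.3% G and C. TFPI2 held 1 match, at -87, and 65.3% G and C. Of all 35116 RefSeq windows of this length, 7.71% held TGANTCA, and among the 7 windows of the set it was in these 3. Searched on both strands, the GC box GGGCGG, present in 45% of all windows, matched 4 times in F3, 2 times in TFPI2 and 0 times in F2RL2. The TATA box TATAAA, in 11.5% of all windows on either strand, matched only in F3 among the 7, at -28. There the printed strand reads TTTATA, so TATAAA itself lies on the opposite strand. The GC box and AP-1 matches did not overlap in any of the 3 windows. A match says only that these letters are present.

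Values below are log2 expression, and differences are log2 differences ± SE with 95% intervals from limma, a linear model fitted to all named clusters at once. A gene was said to rise or fall when its p, adjusted over all 21214 named clusters by the Benjamini-Hochberg method, was under 0.05. Both derivatives were set against the same 2 MDA-MB-231 arrays, so those comparisons share their controls. Levels are compared between lines for 1 gene, not between genes, because each cluster has its own probes. Replicate arrays correlated at r = 0.9935 to 0.9959 across named clusters, and arrays of different lines at 0.9666 to 0.9832. In sorted bulk cells, fewer cells that use a gene and less of its RNA per cell cannot be told apart.

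In cells of the bone-selected line, F2R and F3 rose against MDA-MB-231, 2 of the 7 measured genes other than F2RL2, and 0 of the 7 fell; F2RL2, which stood far higher there, is described and not counted. Of all named clusters, 8.43% were higher and 7.38% lower in 231BoM-1833. In the brain-selected line F3 rose and THBD fell, 1 gene each way, where 10.5% of all named clusters were higher and 8.59% lower in 231BrM-2a. Set directly against 231BoM-1833, 231BrM-2a had 1 of the 7 higher, F3, and 3 lower, F2R, TFPI2 and THBD, while 12.5% of all named clusters were higher and 11% lower. The median difference over the 7 genes was 0.32 for 231BoM-1833, -0.058 for 231BrM-2a and -0.018 between the derivatives. Over all named clusters these medians were -0.052, -0.050 and 0.013. Because the set was chosen with results known, nothing is read from its shares.

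**Figure D1:**
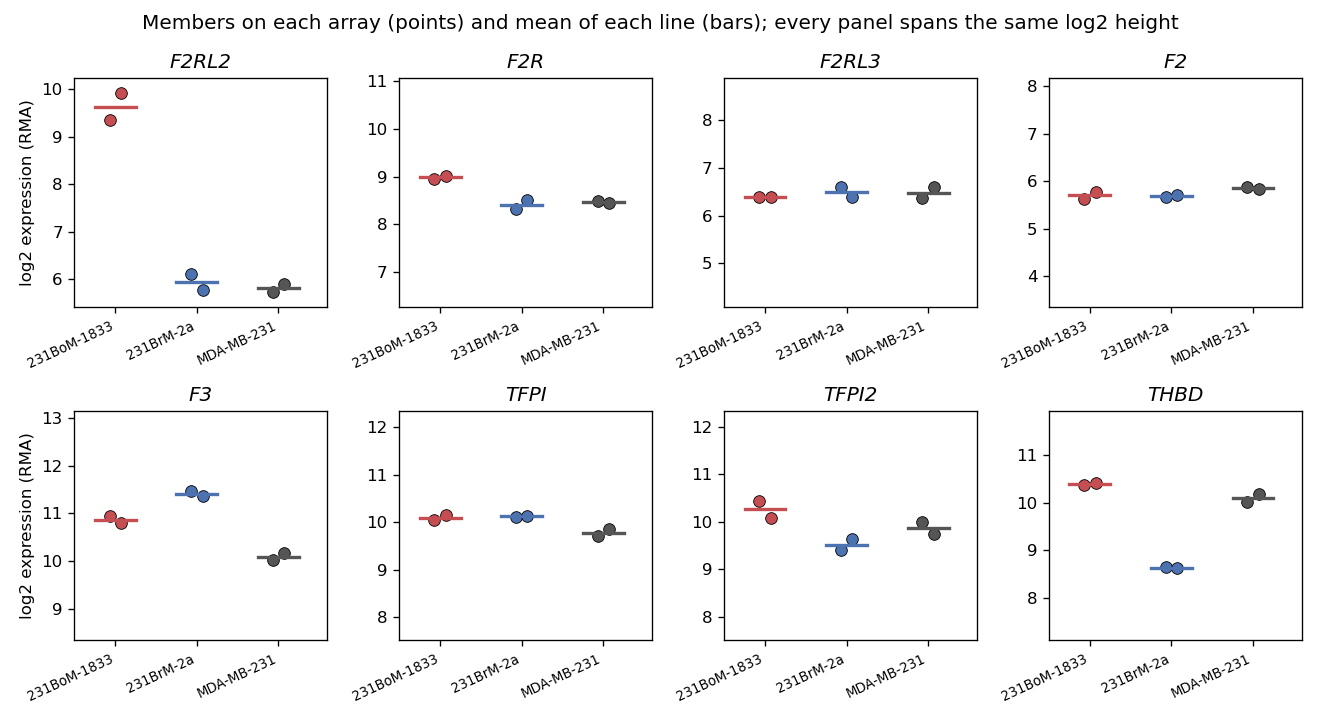
Log2 expression (RMA, vertical axis) of the 8 measured genes on each of the 2 arrays per line (points) with the line mean (bars); all panels span the same log2 height. F2RL2 stands at 9.35 and 9.90 in 231BoM-1833 and at 6.12 or below elsewhere, F3 is lowest in MDA-MB-231, and THBD is lowest in 231BrM-2a.

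Among the receptors, F2RL2 differed the most. PAR3, its product, acts in mouse platelets as a cofactor that presents thrombin to PAR4. F2RL2 measured 9.35 and 9.90 on the 231BoM-1833 arrays, 6.12 and 5.79 on the 231BrM-2a arrays, and 5.74 and 5.91 on the MDA-MB-231 arrays. The bone-selected line stood alone: its lower array was 3.44 above the higher MDA-MB-231 array and 3.24 above the higher 231BrM-2a array, while 231BrM-2a and MDA-MB-231 overlapped. As a description, the mean was 9.63 ± 0.39 in 231BoM-1833, against 5.82 ± 0.12 in MDA-MB-231 (SD, n = 2 each), a 14.0-fold difference. Between 231BrM-2a and MDA-MB-231 the difference was 0.13 ± 0.18, with an interval of -0.29 to 0.54 (adjusted p = 0.679), so a change of more than 0.54 upwards lies outside it.

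F2R, the PAR1 gene, was also highest in 231BoM-1833, over a much smaller span. It measured 8.95 and 9.01 in 231BoM-1833, 8.31 and 8.50 in 231BrM-2a, and 8.49 and 8.44 in MDA-MB-231. Both 231BoM-1833 arrays lay above all others, and the other lines overlapped. F2R rose 1.43-fold in 231BoM-1833 against MDA-MB-231 (0.51 ± 0.11, adjusted p = 0.0157). The adjusted p rose above 0.05 when single arrays were dropped: 0.0684 with MDA-MB-231 replicate 1 dropped, 0.105 with its replicate 2 dropped, and 0.0515 with 231BoM-1833 replicate 2 dropped. The difference itself stayed between 0.48 and 0.54. Only another normalization or the loss of an array of a compared line can move it, so most of the 14 alternatives could not. F2R was 1.49-fold lower in 231BrM-2a than in 231BoM-1833 (-0.57 ± 0.11, adjusted p = 0.00525), a call lost without 231BrM-2a replicate 1 (0.053). Between 231BrM-2a and MDA-MB-231 it differed by -0.058 ± 0.11, with an interval of -0.31 to 0.19 (adjusted p = 0.755).

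F2RL3, the PAR4 gene, measured 6.40 and 6.38 in 231BoM-1833, 6.60 and 6.39 in 231BrM-2a, and 6.36 and 6.60 in MDA-MB-231. The 3 lines overlapped, and no order could be given. Its differences from MDA-MB-231 were -0.089 in 231BoM-1833 (interval -0.37 to 0.19) and 0.016 in 231BrM-2a (interval -0.26 to 0.30), with adjusted p = 0.661 and 0.945. The thrombin precursor gene F2, which the liver makes for the blood, measured 5.63 and 5.78 in 231BoM-1833, 5.66 and 5.71 in 231BrM-2a, and 5.89 and 5.83 in MDA-MB-231. Both derivatives lay just under MDA-MB-231 without overlap, by 0.052 and 0.12 between the nearest arrays, and overlapped each other. F2 did not pass the test, at -0.16 ± 0.11 in 231BoM-1833 (adjusted p = 0.349) and -0.17 ± 0.11 in 231BrM-2a (adjusted p = 0.294). Alone of the 8, its cluster fell among the dimmest 33.3% of named clusters. The values come with no background level, so whether F2 or F2RL3 was transcribed at all is unknown.

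The gene of tissue factor, the initiator of the cascade, rose in both derivatives. F3 measured 10.93 and 10.80 in 231BoM-1833, 11.46 and 11.36 in 231BrM-2a, and 10.02 and 10.16 in MDA-MB-231. No lines overlapped, and the order was 231BrM-2a over 231BoM-1833 over MDA-MB-231. The increase was 2.50-fold in 231BrM-2a (1.32 ± 0.11, adjusted p = 9.82e-05) and 1.71-fold in 231BoM-1833 (0.78 ± 0.11, adjusted p = 0.00273), each against MDA-MB-231. F3 was 1.46-fold higher in 231BrM-2a than in 231BoM-1833 (0.54 ± 0.11, adjusted p = 0.00724), a call lost without 231BrM-2a replicate 1 (0.0617).

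TFPI, the inhibitor of the tissue factor complex, measured 10.05 and 10.15 in 231BoM-1833, 10.12 and 10.14 in 231BrM-2a, and 9.70 and 9.85 in MDA-MB-231. Every derivative array lay above both MDA-MB-231 arrays, and the derivatives overlapped each other. The differences from MDA-MB-231 were 0.35 ± 0.11 in 231BrM-2a (adjusted p = 0.0517) and 0.32 ± 0.11 in 231BoM-1833 (adjusted p = 0.0738), neither past the threshold. The 231BrM-2a difference did pass with the dimmest 33.3% of clusters omitted (adjusted p = 0.0354). It also passed with only the arrays of the 2 lines compared (0.0435) and with a spread that follows intensity (0.0363). Leaving out either 231BoM-1833 array only repeated the fit of the 2 lines. The 231BoM-1833 difference passed in 0 of 14 alternatives. F3 and TFPI were thus measured at their lowest in the same line, MDA-MB-231, with the F3 span the wider.

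TFPI2, a Kunitz-type inhibitor that acts on plasmin and trypsin, ordered the lines differently from TFPI. It measured 10.44 and 10.09 in 231BoM-1833, 9.40 and 9.63 in 231BrM-2a, and 9.99 and 9.74 in MDA-MB-231. No lines overlapped, with MDA-MB-231 in the middle, but the nearest arrays were only 0.096 apart above it and 0.11 apart below it. Against MDA-MB-231 it did not pass in either derivative, at 0.40 ± 0.15 in 231BoM-1833 (adjusted p = 0.106) and -0.35 ± 0.15 in 231BrM-2a (adjusted p = 0.146). Between the derivatives TFPI2 was 1.68-fold lower in 231BrM-2a (-0.75 ± 0.15, adjusted p = 0.00673), a call lost without 231BrM-2a replicate 1 (0.06).

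The gene of thrombomodulin, which diverts thrombin to the anticoagulant protein C pathway, fell in the brain-selected line. THBD measured 10.37 and 10.42 in 231BoM-1833, 8.64 and 8.62 in 231BrM-2a, and 10.02 and 10.17 in MDA-MB-231. Both 231BrM-2a arrays stood apart at the low end, 1.38 below the lower MDA-MB-231 array, and 231BoM-1833 lay above MDA-MB-231 without overlap. The decrease was 2.77-fold in 231BrM-2a against MDA-MB-231 (-1.47 ± 0.11, adjusted p = 4.42e-05) and 3.40-fold against 231BoM-1833 (-1.76 ± 0.11, adjusted p = 7e-06). Both calls held under all 14 alternatives. The differences, which only another normalization or the loss of an array of a compared line can move, spanned -1.54 to -1.39 and -1.79 to -1.74. In 231BoM-1833 the difference from MDA-MB-231 was 0.30 ± 0.11 (adjusted p = 0.0882). Thus in 231BrM-2a the initiator gene F3 was higher and the restraining gene THBD lower, and in 231BoM-1833 F3 was higher while THBD did not pass. The restraining genes did not all move as THBD did in 231BrM-2a. TFPI differed there by 0.35 and did not pass (adjusted p = 0.0517), and the anticoagulant gene PROS1, described below, rose.

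**Figure D2:**
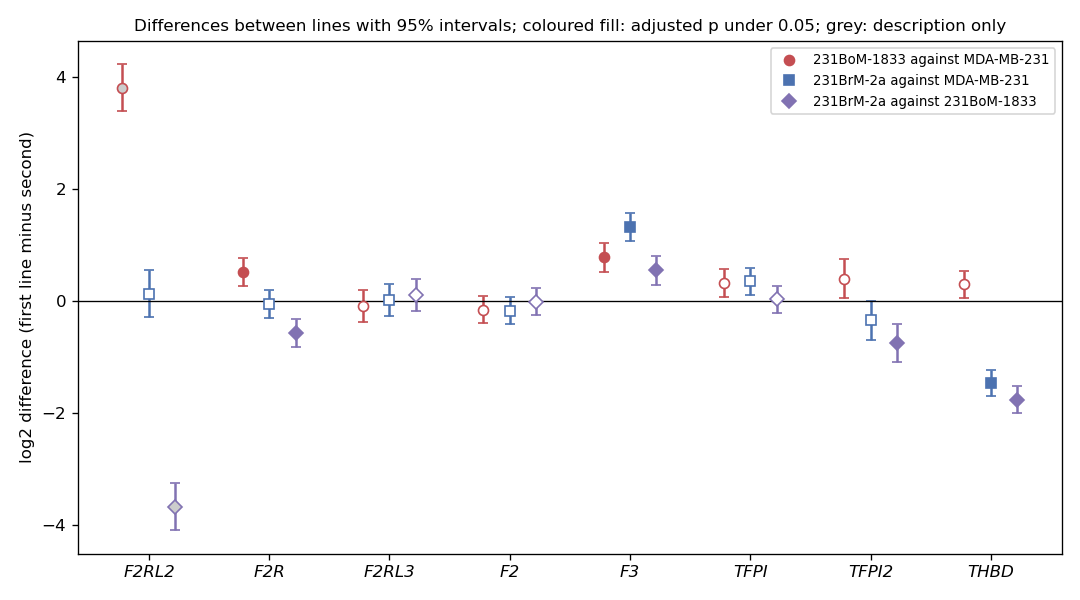
Log2 difference between lines (vertical axis, first-named line minus second) for each gene, with 95% intervals; coloured fill marks an adjusted p under 0.05, and grey fill the F2RL2 differences given as a description. F2RL2 separates 231BoM-1833 from both other lines (3.80 and -3.68), F3 lies above 0 in all 3 comparisons, and THBD lies at -1.47 and -1.76 in the 2 comparisons of 231BrM-2a.

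THBD is also an endothelial gene, and markers of that cell type were examined. In the brain-selected line 0 of 7 endothelial markers rose and 3 fell against MDA-MB-231: TIE1 (-1.90 ± 0.12, adjusted p = 2.66e-05), the VEGF receptor gene KDR (-1.13 ± 0.13, adjusted p = 0.000425) and PECAM1 (-0.38 ± 0.11, adjusted p = 0.0382), the last called in 5 of 12 alternatives. A second PECAM1 cluster differed by 0.014 ± 0.11 (adjusted p = 0.947). The 3 endothelial markers that fell are 42.9% of the 7, where 19% of all named clusters passed in 231BrM-2a. In 231BoM-1833 KDR rose (0.44 ± 0.13) and TIE1 fell (-0.86 ± 0.12), or 28.6% of the 7, where 15.8% of all named clusters passed. The mean log2 value of the 7 ranged over 6.51 to 6.55 on the 231BoM-1833 arrays, 6.16 to 6.23 on the 231BrM-2a arrays and 6.64 on both MDA-MB-231 arrays. CDH5, which defines endothelium, differed by -0.038 in 231BoM-1833 and -0.043 in 231BrM-2a (adjusted p = 0.831 and 0.812). The part of these markers in the THBD difference was not tested. For the marker counts that follow, the shares of all named clusters are again 15.8% in 231BoM-1833 and 19% in 231BrM-2a. Of 6 platelet markers, 0 rose and 1 fell in each derivative, or 16.7% of them, and 0 of 3 red cell markers passed in either. Of 5 leukocyte markers, CD14 rose in 231BoM-1833 (0.88 ± 0.12) and fell in 231BrM-2a (-0.50 ± 0.12). The leukocyte marker PTPRC measured 3.60 to 3.86 over the 6 arrays. Among 5 hepatocyte markers, named here because F2 is a liver gene, only SERPINA1 rose, in 231BrM-2a (0.58 ± 0.12, adjusted p = 0.0109), and ALB measured 4.04 to 4.21. Of VIM, CD44, CAV1 and AXL, genes known to be high in MDA-MB-231 cells, CAV1 fell in 231BoM-1833 (-0.84 ± 0.15, adjusted p = 0.00738, lost without MDA-MB-231 replicate 2) and VIM fell in 231BrM-2a (-0.37 ± 0.099, adjusted p = 0.0294, called in 7 of 13 alternatives). Of ESR1, PGR, ERBB2 and CDH1, known to be low in such cells, ERBB2 rose in 231BrM-2a (0.45 ± 0.11, adjusted p = 0.0235, called in 8 of 13 alternatives), and the others did not pass against MDA-MB-231. Of the genes of the sort, CD44, CD24 and EPCAM, 0 passed against MDA-MB-231, and CD44 was lower in 231BrM-2a than in 231BoM-1833 (-0.54 ± 0.13, adjusted p = 0.014). The 231BoM-1833 replicates lay apart for EPCAM, at 8.32 and 7.28, and for CD24, at 6.49 and 5.76. The values carry no detection limit, so absence could not be shown.

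On chromosome 5, F2RL2, F2R and F2RL1 are neighbours, and F2RL2 lies within the span of IQGAP2, a scaffold protein gene, on the opposite strand. IQGAP2 measured 5.02 and 4.88 in 231BoM-1833, 4.55 and 4.52 in 231BrM-2a, and 4.41 and 4.33 in MDA-MB-231, with both 231BoM-1833 arrays above the rest. It rose in 231BoM-1833 (0.59 ± 0.11, adjusted p = 0.00788), a call lost without MDA-MB-231 replicate 2 (0.0714). SV2C and POC5 on one side, and S100Z and CRHBP on the other, differed from MDA-MB-231 by -0.099 to 0.13 in 231BoM-1833, with adjusted p = 0.484 to 0.893. In 231BrM-2a IQGAP2 and these 4 differed by -0.075 to 0.16, and 0 passed. The 231BoM-1833 arrays were thus higher at 3 genes next to each other, by 0.59 at IQGAP2, 3.80 at F2RL2 and 0.51 at F2R. IQGAP2 was dim, at 4.33 to 5.02 over the 6 arrays, where the dim F2 cluster measured 5.63 or more. Whether IQGAP2 was transcribed at all is unknown, as for F2.

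**Figure D3:**
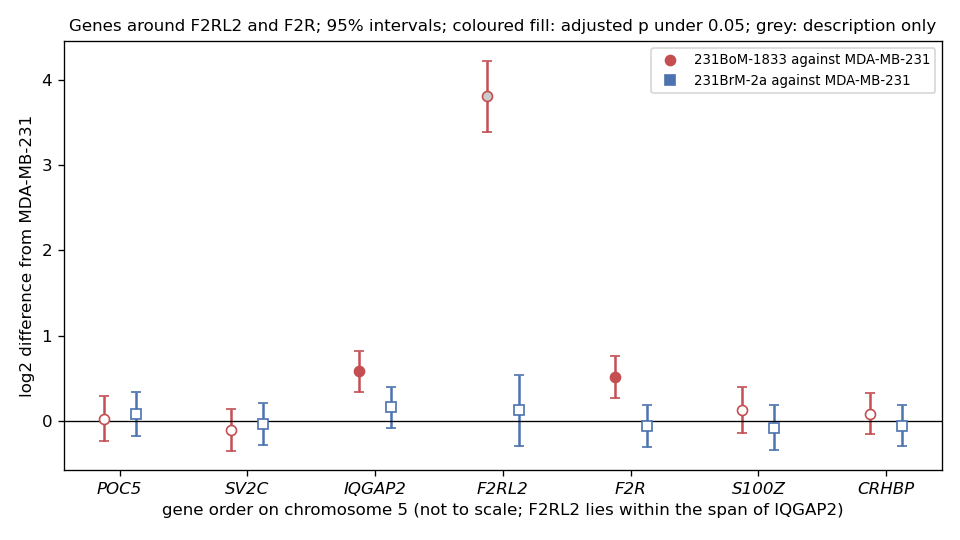
Log2 difference from MDA-MB-231 (vertical axis) with 95% intervals for genes in their order on chromosome 5, in 231BoM-1833 (circles) and 231BrM-2a (squares); coloured fill marks an adjusted p under 0.05, and grey fill the F2RL2 difference given as a description. Colour fills only IQGAP2 and F2R, and only in 231BoM-1833, with F2RL2 at 3.80 between them.

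The 2 nearest named protein-coding genes on each side of every measured gene were read in the same way. Of 29 such neighbours, 2 rose and 0 fell in 231BoM-1833, which is 6.9% of them where 15.8% of all named clusters passed. In 231BrM-2a 4 rose and 3 fell, or 24.1%, where 19% of all passed, and between the derivatives 4 were higher and 5 lower in 231BrM-2a, or 31%, where 23.5% of all passed.

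Beside F3, which was highest in 231BrM-2a, the neighbours went both ways. ARHGAP29 rose in 231BoM-1833 (0.78 ± 0.14, adjusted p = 0.00759), a call lost when MDA-MB-231 replicate 2 was dropped (0.065). It was lower in 231BrM-2a than in 231BoM-1833 (-1.05 ± 0.14, adjusted p = 0.000725), where F3 was higher. SLC44A3, on the other side, was higher in 231BrM-2a, as F3 was, both against MDA-MB-231 (0.39 ± 0.11, adjusted p = 0.0378, called in 6 of 12 alternatives) and against 231BoM-1833 (0.43 ± 0.11, adjusted p = 0.0213, called in 8 of 12). ABCD3 and CNN3 did not pass, at -0.11 and 0.10 in 231BoM-1833 and 0.26 and 0.37 in 231BrM-2a.

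On one side of THBD, which fell in 231BrM-2a, both neighbours fell there too. The nearer, the somatostatin receptor gene SSTR4, fell by 0.52 ± 0.11 (adjusted p = 0.00964, called in 9 of 12 alternatives), and the transcription factor gene FOXA2 fell by 1.03 ± 0.11 (adjusted p = 0.000377). On the other side CD93 and NXT1 did not pass, at -0.18 and -0.20 (adjusted p = 0.393 and 0.322). In 231BoM-1833 these 4 differed from MDA-MB-231 by -0.25 to -0.18, and 0 of them passed.

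Around TFPI2, the calcitonin receptor gene CALCR (0.71 ± 0.11, adjusted p = 0.00297) and the G-protein subunit gene GNG11 (0.48 ± 0.14, adjusted p = 0.0411, called in 7 of 13 alternatives) rose in 231BrM-2a, where TFPI2 itself was at -0.35 and did not pass. VPS50 and GNGT1 did not pass, at 0.20 and 0.065. Around TFPI, GULP1 rose in 231BrM-2a (0.66 ± 0.11, adjusted p = 0.00356), while CALCRL, ZSWIM2 and COL3A1 differed by -0.18 to 0.057 and did not pass. In 231BoM-1833 these 8 neighbours of TFPI2 and TFPI differed from MDA-MB-231 by -0.33 to 0.23, and 0 passed.

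Around F2, ARHGAP1 fell in 231BrM-2a (-0.50 ± 0.10, adjusted p = 0.00802), a call lost when MDA-MB-231 replicate 1 or 231BrM-2a replicate 2 was dropped, and ZNF408, CKAP5 and LRP4 did not pass there, at -0.30 to 0.19. SIN3B, NWD1, CPAMD8 and HAUS8, around F2RL3, did not pass against MDA-MB-231 either, at -0.39 to 0.030 in 231BrM-2a. In 231BoM-1833 the 8 neighbours of F2 and F2RL3 differed by -0.17 to 0.070, and 0 passed.

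Genes whose values ran most like these over the 6 arrays were sought among 1094 genes with line means at least 1 log2 unit apart, as a description in which 3 lines set most of the likeness. For F2RL2 they were THBS2, HLA-DMA, MAP3K7CL, SPTLC2 and BLID (Pearson r = 0.992 to 0.999). THBS2, a matricellular protein gene, averaged 8.27 in 231BoM-1833, 6.25 in 231BrM-2a and 6.24 in MDA-MB-231. For THBD they were SHC3, PLAT, ROBO1, ESM1 and ITGA2 (r = 0.996 to 0.998). PLAT, the tissue plasminogen activator gene, averaged 12.88 in 231BoM-1833, 10.36 in 231BrM-2a and 12.43 in MDA-MB-231. For F3 they were IFIH1, COL8A1, ZNF737, FRRS1 and IGSF3 (r = 0.986 to 0.991), and IFIH1, the gene of a viral RNA sensor, averaged 6.83 in 231BoM-1833, 7.45 in 231BrM-2a and 5.86 in MDA-MB-231.

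The wider pathway was read from 5 lists, in which 75 genes were measured. In 231BoM-1833 10 rose and 5 fell, or 20% of the 75, and in 231BrM-2a 12 rose and 12 fell, or 32%. Across all named clusters 15.8% and 19% passed in the same comparisons. Between the derivatives 11 of the 75 were higher and 17 lower in 231BrM-2a, or 37.3%, where 23.5% of all named clusters passed. The count of 15 in 231BoM-1833 dropped to 7 or 6 when MDA-MB-231 replicate 1 or 2 was omitted. The count of 24 in 231BrM-2a dropped to 15 when MDA-MB-231 replicate 2 or 231BrM-2a replicate 1 was omitted. Of 15 coagulation factor genes, 0 rose and 0 fell in 231BoM-1833, with differences of -0.37 to 0.31 and a median of -0.067; the median in 231BrM-2a was -0.11. In 231BrM-2a 1 rose, F13A1, which stabilises fibrin (0.40 ± 0.11, adjusted p = 0.0296), named after its value was seen and called in 6 of 12 alternatives. The other factors that tissue factor works through did not pass: F7 differed by -0.10 and -0.11, and F10 by -0.30 and -0.16, in 231BoM-1833 and 231BrM-2a.

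Among 10 anticoagulants and thrombin inhibitors, 1 rose and 1 fell in each derivative, or 20% of them, with medians of -0.086 in 231BoM-1833 and -0.14 in 231BrM-2a, and 40% passed between the derivatives. The shares of all named clusters were the 15.8%, 19% and 23.5% given above, here and for the lists below. PROS1, the gene of a cofactor of activated protein C that has a near-identical pseudogene, measured 11.13 and 11.17 in 231BrM-2a, against 9.62 and 9.76 in MDA-MB-231, and rose 2.74-fold (1.46 ± 0.11, adjusted p = 5.24e-05). A second PROS1 cluster also rose, by 1.63 ± 0.16. SERPINE2, protease nexin-1, a thrombin inhibitor, measured 8.88 and 8.44 in 231BrM-2a, against 9.93 and 9.86 in MDA-MB-231, and fell 2.35-fold (adjusted p = 0.0014), named after its value was seen. In 231BrM-2a, then, the genes for thrombomodulin and for the protein S cofactor of the same pathway moved in opposite directions. PROCR, the protein C receptor gene, differed by 0.28 ± 0.12 there (adjusted p = 0.142). In 231BoM-1833 the pair that passed were the heparin cofactor gene SERPIND1 (0.56 ± 0.12, adjusted p = 0.0158) and SERPINA5, the protein C inhibitor gene (-0.56 ± 0.10, adjusted p = 0.00756), both named after their values were seen. Both calls were lost when either MDA-MB-231 array was omitted, and SERPIND1 also without 231BoM-1833 replicate 1.

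Of 15 measured proteases able to cut these receptors, 1 rose and 0 fell in 231BoM-1833, and 1 rose and 3 fell in 231BrM-2a, or 6.67% and 26.7%, with medians of -0.090 and -0.15. Between the derivatives 0 were higher and 4 lower in 231BrM-2a, or 26.7%. The collagenase gene MMP1, whose product can cut PAR1, measured 13.57 and 14.15 in 231BoM-1833, 7.67 and 6.18 in 231BrM-2a, and 12.64 and 12.75 in MDA-MB-231. The 231BrM-2a arrays were the low ones by a wide margin and also lay 1.49 apart. MMP1 fell 54.4-fold in 231BrM-2a against MDA-MB-231 (-5.77 ± 0.39, adjusted p = 3.13e-05) and was 122-fold lower in 231BrM-2a than in 231BoM-1833 (-6.93 ± 0.39, adjusted p = 4.8e-06). PRSS3, the mesotrypsin gene, which shares sequence with other trypsinogen genes and so is uncertain, measured 6.66 and 6.96 in 231BrM-2a, against 8.93 and 8.74 in MDA-MB-231 (-2.03 ± 0.15, adjusted p = 4.37e-05), and was 3.87-fold lower in 231BrM-2a than in 231BoM-1833. CTSS, the gene of cathepsin S, which can cut PAR2, the receptor not analysed here, was the 1 protease gene that rose in each derivative. Its rise was 3.56-fold in 231BoM-1833 (1.83 ± 0.16, adjusted p = 0.00022) and 1.70-fold in 231BrM-2a (0.76 ± 0.16, adjusted p = 0.0108, called in 11 of 13 alternatives).

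Signalling and trafficking genes passed in both directions, 3 up and 3 down of 20 in 231BoM-1833 and 6 up and 3 down in 231BrM-2a, or 30% and 45%, with medians of 0.017 and 0.10. Between the derivatives 4 were higher and 4 lower in 231BrM-2a, or 40%. PLCB4, a phospholipase that G-protein-coupled receptors activate, rose in both, by 1.19 ± 0.20 in 231BoM-1833 (adjusted p = 0.00606, lost without MDA-MB-231 replicate 2 at 0.0646) and by 1.67 ± 0.20 in 231BrM-2a (adjusted p = 0.000722). RGS2, which damps signalling through Gq, fell by 0.87 in 231BoM-1833 and by 0.93 in 231BrM-2a (adjusted p = 0.00468 and 0.00214). PLCB1, a phospholipase gene of the same family as PLCB4, fell in 231BrM-2a (-1.07 ± 0.13, adjusted p = 0.000871). The receptor kinase gene GRK2 rose in 231BrM-2a (0.53 ± 0.10, adjusted p = 0.00682) and fell in 231BoM-1833 (-0.47 ± 0.10, adjusted p = 0.0157). Both PLCB1 and GRK2 were named after their values were seen. The Gq gene GNAQ, named after its value was seen, rose in 231BrM-2a (0.50 ± 0.12, adjusted p = 0.0172), called in 9 of 13 alternatives.

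Of 15 genes known to answer thrombin in various cells, 5 rose and 1 fell in 231BoM-1833, and 3 rose and 5 fell in 231BrM-2a, or 40% and 53.3%, where 15.8% and 19% of all named clusters passed. Between the derivatives 4 were higher and 6 lower in 231BrM-2a, or 66.7%, where 23.5% of all passed. Nothing is read from these shares, since the lists were chosen with results of these arrays known. The median difference was 0.45 in 231BoM-1833 and -0.13 in 231BrM-2a. Many of these genes also answer other stimuli. HBEGF, an EGF-family ligand gene, measured 11.93 and 11.49 in 231BoM-1833, 9.68 and 9.78 in 231BrM-2a, and 10.28 and 10.38 in MDA-MB-231. Its 231BoM-1833 arrays were the high ones and its 231BrM-2a arrays the low ones, without overlap. CXCL1, a neutrophil chemokine gene with close relatives, followed the same order, rising 1.82-fold in 231BoM-1833 (adjusted p = 0.00153) and falling 2.98-fold in 231BrM-2a (adjusted p = 3.56e-05). CXCL2 rose in 231BoM-1833 by 1.09 ± 0.19 (adjusted p = 0.0073, lost without MDA-MB-231 replicate 1). It fell in 231BrM-2a (-0.96 ± 0.19, adjusted p = 0.00863). CXCL8 fell 3.22-fold in 231BrM-2a (adjusted p = 0.00172) and rose 1.79-fold in 231BoM-1833 (adjusted p = 0.0461, close to the threshold). Among the 6 lower between the derivatives, CXCL8, CXCL1, CXCL2 and HBEGF were 5.76-fold, 5.41-fold, 4.13-fold and 3.94-fold lower in 231BrM-2a (adjusted p = 1.25e-06 to 0.000112). The 4 higher, all named after their values were seen, were the growth factor genes PDGFB (1.06 ± 0.12) and PDGFA (0.60 ± 0.12), the cytokine gene IL6 (1.01 ± 0.23) and the adhesion molecule gene ICAM1 (0.63 ± 0.15), with adjusted p = 0.00036 to 0.014. Against MDA-MB-231, the 3 that rose in 231BrM-2a were IL6 (1.31 ± 0.23), ICAM1 (1.12 ± 0.15) and PDGFB (0.76 ± 0.12), and the 1 that fell in 231BoM-1833 was PDGFA (-0.75 ± 0.12).

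**Figure D4:**
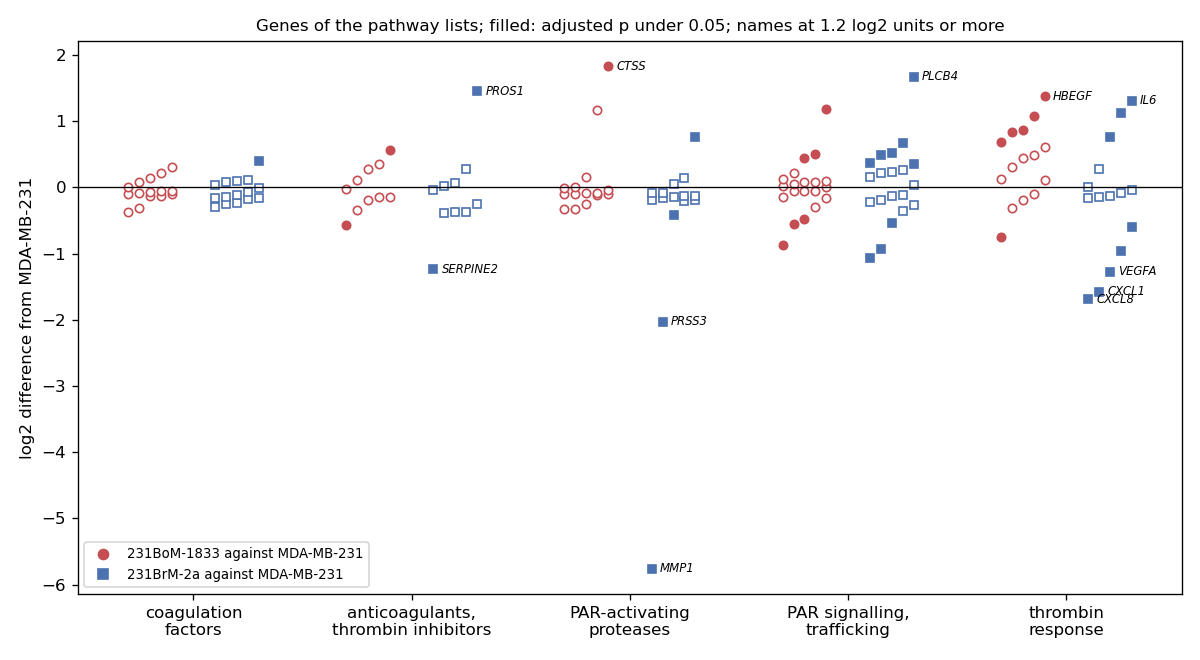
Log2 difference from MDA-MB-231 (vertical axis) of each measured gene in the 5 pathway lists (horizontal axis, spread sideways only to separate points), in 231BoM-1833 (circles) and 231BrM-2a (squares); filled symbols have an adjusted p under 0.05. Coagulation factors lie within -0.37 to 0.41 of 0, while MMP1, at -5.77 in 231BrM-2a, lies far below all others.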

How the data were processed

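The deposited values are log2 expression, 1 per transcript cluster and array, made by the authors with RMA in Affymetrix Expression Console from Human Gene 1.0 ST arrays, per the series design text and the submitters' processing notes; versions are not given in the sources used here. RMA corrects background, puts the arrays on 1 scale and summarises probes, so a global shift in RNA content is removed. Labelled cDNA was made from 100 ng of total RNA, per the labels' protocols. Genes were named from a platform table, using clusters with 1 symbol and, for symbols on several, the highest mean. limma 3.58.1 in R 4.3.3 modelled the 6 arrays with 1 mean for each line (3 residual and 6.06 prior degrees of freedom), two-sided, and was tested on simulated data. An exact permutation of 2 against 2 arrays cannot go below 0.333. The small number of arrays limits precision, and no depth applies. The members, lists and tests were chosen with earlier results of these data known. All 9 members are named. Per comparison, the text names the 6 pathway genes past the threshold with the largest differences, 2 neighbours a side of each measured member and, for the 3 members with the widest spread of line means, the 5 most similar genes. Further genes were named after their values were seen, as the text says, and marker genes as lists. Alternatives changed the clusters tested, normalization, spread, replicate block and arrays.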

Additional observations from a re-analysis of the deposited data

Results flagged for a closer look

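For TFPI2 and THBD the derivatives lay on opposite sides of MDA-MB-231 on every array, and the direct comparison of the derivatives passed the test. TFPI2 was lower in 231BrM-2a than in 231BoM-1833 by a log2 difference of -0.75, and THBD by -1.76. Of the differences from MDA-MB-231, only the THBD decrease in 231BrM-2a passed on its own.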

How the results depend on the processing

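Of 333 member differences recomputed under the alternatives, 322 kept their side of the threshold (uncalled ones near 0, such as F2RL3, could change sign), 6 lost a call, 5 gained a call (all TFPI in 231BrM-2a against MDA-MB-231) and 0 calls reversed. The 6 lost calls came from leaving out an array: F2R in both comparisons of 231BoM-1833, and F3 and TFPI2 between the derivatives. Counting F2RL2, leaving out 1 array gave 2 to 3 members called in 231BoM-1833 against MDA-MB-231, 2 to 3 in 231BrM-2a against MDA-MB-231 and 2 to 5 between the derivatives, where 231BrM-2a replicate 1 gave the 2. For the pathway lists the counts were 6 to 17, 15 to 27 and 20 to 28, against 15, 24 and 28 with all arrays. For all named clusters they were 932 to 2936, 1764 to 4751 and 3001 to 4750, against 3354, 4040 and 4976. Dropping MDA-MB-231 replicate 2 gave the lowest count in both comparisons with that line, and 231BrM-2a replicate 2 the lowest between the derivatives. With clusters without a symbol tested too, 2220 were called in 231BoM-1833 against MDA-MB-231; the cause was not tested. Same-numbered replicates did not deviate together (correlations of 0.036, -0.16 and -0.17 between lines) and were not treated as pairs. With the replicate block the members called, counting F2RL2, stayed at 3, 2 and 5, and all named clusters called were 2724, 3535 and 4564. The 333 member differences also include those of F2RL2, and repeats that could not differ. Leaving out an array of the line not compared gave the same fit as using only the arrays of the lines compared. The gained TFPI calls include such repeats, so the 322 are not separate checks. Taking the mean over clusters of a symbol changed nothing, since each member has 1. Where an array was left out, the lone array of a line was assumed to vary like the others. No detection calls came with the values, which limits what can be said of dim clusters such as F2.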
